A study of Mus musculus with 8 samples.

Results

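The 10 genes described here, H2-K1, H2-D1, H2-Q4, H2-Q6, H2-Q7, H2-T23, B2m, Tap1, Tapbp and Psmb8, carry the mouse MHC class I and antigen processing pathway. They were taken by name from the gene column of the count tables, where all 10 were found among the 26357 genes detected in at least 3 cells. The cells were non-haematopoietic stromal cells of the femur of female C57BL/6 wild-type mice at 12 weeks of age, profiled with the Chromium 3' single-cell kit after magnetic depletion of lineage-positive, CD45+ and CD117+ cells. Control femurs were not fractured. Fracture femurs were broken by three-point bending at 10 weeks and held by an intramedullary nail, with carprofen as analgesic, and were collected on post-fracture day 14 (PFD14). The labels give each group 2 cell preparations with 2 libraries each, 8 libraries in all, and the 2 libraries of a preparation were summed (n = 2 per group). The labels do not say whether preparations were separate animals, so the p-values measure the spread between preparations only.

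MHC class I molecules are found on nearly all nucleated cells and present short peptides from inside the cell to CD8+ T cells, while natural killer cells read their presence. The proteasome cuts cytosolic proteins, the TAP transporter carries the peptides into the endoplasmic reticulum, and tapasin holds an empty heavy chain with B2m until a peptide is bound. Interferons raise this pathway in many tissues, and NLRC5 and IRF1 are known transcriptional activators of it.

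By role, H2-K1 and H2-D1 encode the classical peptide-presenting heavy chains, and H2-Q4, H2-Q6, H2-Q7 and H2-T23 encode non-classical heavy chains, with H2-T23 giving Qa-1, the ligand of the CD94/NKG2A receptor of natural killer cells. B2m is the light chain that all of them share. Tap1 is a subunit of the peptide transporter, Tapbp encodes tapasin, and Psmb8 is the interferon-inducible subunit of the immunoproteasome that takes the place of Psmb5. In GRCm38 (GENCODE M21), 9 of the genes lie in or near the MHC region of chromosome 17, H2-K1 at chr17:33996017-34000347 (minus strand), Tapbp at chr17:33915899-33929292 (plus), Tap1 and Psmb8 next to each other at chr17:34187553-34197225 and chr17:34197721-34201454 (both plus), and H2-D1 at chr17:35262730-35267499 (plus). The non-classical genes follow, with H2-Q4 at chr17:35379617-35385290, H2-Q6 at chr17:35424850-35430055 and H2-Q7 at chr17:35439155-35443773 (all plus), and H2-T23 at chr17:36029773-36032855 (minus). B2m lies apart, at chr2:122147686-122153083 (plus).

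The sequences upstream of 5 members are shown because the members fell together in several cell classes, and these windows show which short letter strings they share. Each is the 250 bases before a transcription start from RefSeq (GRCm38.p6), read on the strand of the gene. Capitals mark matches, on either strand, to the NF-kB string GGGATTCCC, the IRF core AANNGAAA, the Y box GATTGG and the X2 box TGACGNNA. The windows lie at chr17:34000334-34000583 for H2-K1 (the second of its 2 listed starts), chr17:35262844-35263093 for H2-D1, chr17:35438905-35439154 for H2-Q7, chr2:122147437-122147686 for B2m and chr17:33919228-33919477 for Tapbp.
H2-K1: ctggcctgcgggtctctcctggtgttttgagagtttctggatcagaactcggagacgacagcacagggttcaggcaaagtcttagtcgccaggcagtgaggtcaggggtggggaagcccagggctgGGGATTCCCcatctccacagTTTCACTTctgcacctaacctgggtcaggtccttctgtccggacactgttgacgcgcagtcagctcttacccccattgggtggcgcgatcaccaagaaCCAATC
H2-D1: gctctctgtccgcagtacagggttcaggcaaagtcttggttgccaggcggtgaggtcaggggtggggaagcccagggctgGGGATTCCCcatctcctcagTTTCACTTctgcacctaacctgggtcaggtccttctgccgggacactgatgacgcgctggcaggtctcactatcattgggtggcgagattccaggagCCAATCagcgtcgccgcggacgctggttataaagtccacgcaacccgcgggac
H2-Q7: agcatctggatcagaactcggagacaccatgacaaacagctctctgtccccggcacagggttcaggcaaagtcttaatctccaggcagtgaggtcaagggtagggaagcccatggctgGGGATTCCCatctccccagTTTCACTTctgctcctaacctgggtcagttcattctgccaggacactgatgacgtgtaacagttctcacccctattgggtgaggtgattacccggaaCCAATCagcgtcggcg
B2m: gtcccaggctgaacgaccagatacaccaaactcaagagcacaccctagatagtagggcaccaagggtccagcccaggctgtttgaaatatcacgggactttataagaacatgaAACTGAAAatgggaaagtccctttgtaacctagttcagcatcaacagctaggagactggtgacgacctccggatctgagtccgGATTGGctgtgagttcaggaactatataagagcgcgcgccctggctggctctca
Tapbp: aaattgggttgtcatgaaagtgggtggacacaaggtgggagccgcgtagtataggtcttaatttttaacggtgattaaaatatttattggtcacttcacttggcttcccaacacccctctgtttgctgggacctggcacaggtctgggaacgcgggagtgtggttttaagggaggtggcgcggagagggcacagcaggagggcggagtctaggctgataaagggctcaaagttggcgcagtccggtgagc

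H2-K1, H2-D1, H2-Q6 and H2-Q7 hold the NF-kB string in their windows, which 0.301% of 32851 windows of the same length upstream of all genes hold. In these 4 genes it precedes an IRF core, with 10 (H2-Q7) or 11 bases in between. The IRF core was found in 7 of the 10 members (21.3% of all windows) and the Y box in 8 (14.6%). The X2 box was found in H2-Q4 and Tap1 (5.66% of all windows). Tapbp held none of these strings, and Psmb8 held only an interferon-gamma-activated string, TTCNNNGAA, found in 7.02% of all windows. The matched letters did not overlap one another, and a match is a description of the letters and not a binding site.

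The count tables held 56543151 to 89126291 unique molecular identifiers (UMIs) per library, and 45328 of 48903 barcodes passed the filters, 20676 cells of Control and 24652 of Fracture. No library pair shared more than 23 barcodes. Cells were clustered without the members, the pathway lists and the cell cycle genes, and clusters were named from marker genes, which gave 6 stromal classes and 3 classes of leftover blood cells. Of all cells, stromal classes made up 71.9% and 63.2% for Control and 97.3% and 97.0% for Fracture. Per class, the Control and Fracture preparations held 2065, 674, 6794 and 7115 chondrocyte-like cells, 1721, 1004, 1643 and 1762 osteoblast-like cells, 2610, 1730, 1035 and 1113 cells like bone mesenchymal stromal cells (BMSC-like), 1645, 1251, 1211 and 1407 endothelial-like cells, 406, 138, 699 and 838 fibroblast-like cells and 725, 210, 168 and 164 smooth muscle-like cells.

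To ask whether the level of the pathway in bone stroma differs after fracture, UMI counts were first summed over all cells of a preparation and given as CPM, UMIs scaled to a common total per sum, with TMM scaling. H2-K1 measured 909 and 895 CPM in Control preparations 1 and 2 against 353 and 352 CPM in Fracture preparations 1 and 2, and B2m measured 959.7 and 927 against 485 and 487 CPM. For both genes each Fracture value lay below each Control value. All 10 members were called lower in Fracture (edgeR quasi-likelihood test, Benjamini-Hochberg adjusted p under 0.05), with log2 changes (Fracture minus Control) from -1.94 for H2-T23 to -0.58 for Tapbp and adjusted p = 0.00921 for H2-K1. Of all 20452 genes tested, 14.9% were called lower. Such a sum mixes the level per cell with the share of each class, and fewer cells of a class cannot be told apart from less RNA per cell in it. Over the 6 stromal classes alone the 10 members were again lower, by -0.82 (Tapbp) to -2.23 (H2-Q6), against 21% of genes called lower. The comparison was therefore made within each class. With Fracture preparation 1 or 2 left out, edgeR called 0 members and 0 of all genes in both of these sums (9 and 9 at an unadjusted p under 0.05 over all cells, 10 and 10 at an unadjusted p under 0.05 over stromal cells).

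Among the 6 stromal classes taken whole, the pathway was strongest in BMSC-like and endothelial-like cells in unfractured bone. After fracture the endothelial-like class stood first for every member. This order does not hold for BMSC-like cells of Fracture with UMIs of Cxcl12, Lepr and Adipoq (66 and 91 cells). Their summed level of the 10 members per cell had medians of 12771 and 12270 CPM, against 4928 and 4686 CPM in endothelial-like cells of Fracture. On CPM scaled to library size, which allows classes to be compared, BMSC-like cells had, of these 6 classes, the highest mean of the Control preparations for 8 members, while endothelial-like cells had the highest mean of H2-T23 and Tapbp. For H2-T23, Tap1 and Psmb8 the Control preparations of these 2 classes overlapped, so their order is not separated by the spread. H2-K1, for instance, averaged 3806 CPM in BMSC-like, 1768 in endothelial-like, 588 in osteoblast-like, 402 in smooth muscle-like, 278 in fibroblast-like and 157 CPM in chondrocyte-like cells of Control, with no overlap between neighbours. In Fracture the H2-K1 means were 1265 CPM in endothelial-like, 612 in BMSC-like, 429.9 CPM in smooth muscle-like cells, then 289 in osteoblast-like, 288 in fibroblast-like and 167 CPM in chondrocyte-like cells, where the osteoblast-like and fibroblast-like preparations overlapped and no other neighbours did. Chondrocyte-like cells were the lowest of the 6 for all members but Tapbp, for which osteoblast-like cells were lowest. The ratio of the highest to the lowest class narrowed from 24.2 to 7.59 for H2-K1 and from 22.6 to 8.41 for B2m, whereas it went from 46.0 to 84.4 for Psmb8 and from 12.1 to 18.8 for Tap1. No test was made of these ratios.

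**Figure D1:**
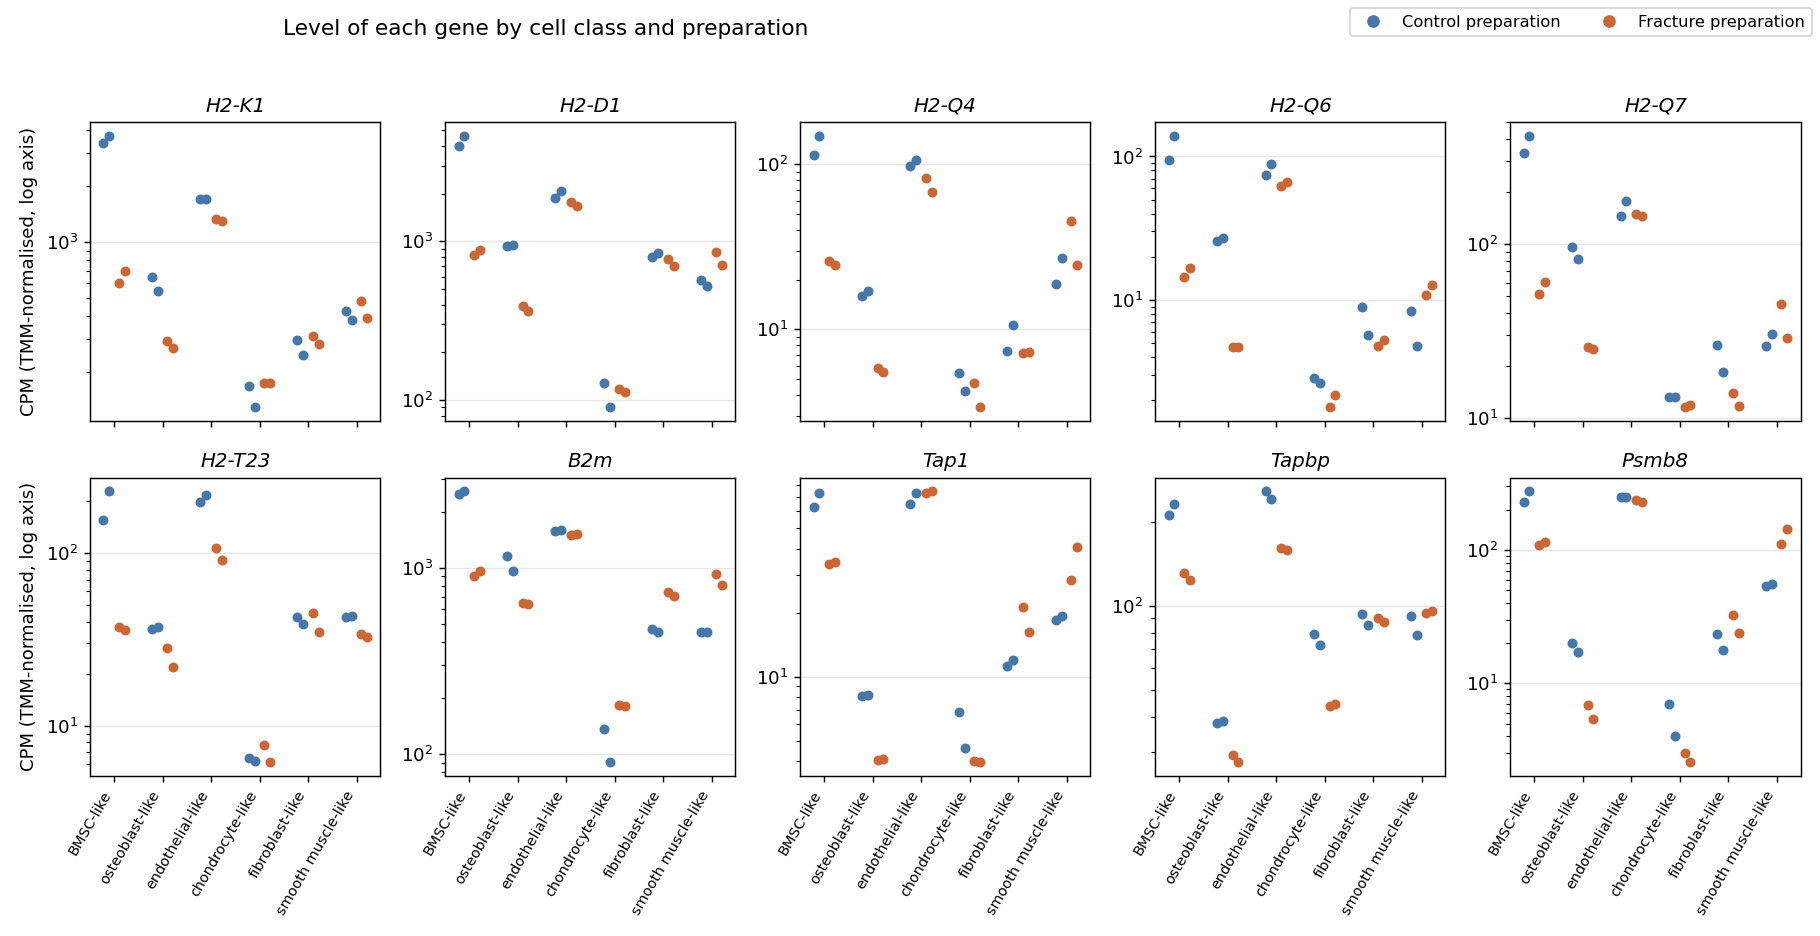
Level of each member (CPM with TMM scaling, log axis) in the 6 stromal classes, with 1 point for each of the 2 Control and 2 Fracture preparations. TMM scaling was set within each class, so heights are not compared between classes. BMSC-like points of the groups lie far apart for H2-K1, while chondrocyte-like points lie close together. Scaled to library size, the BMSC-like means of H2-K1 are 3806 CPM in Control and 612 CPM in Fracture.

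The BMSC-like class was named from markers of marrow stromal cells such as Cxcl12 and Lepr. A smaller share of its cells held these markers in Fracture than in Control. The class showed the largest falls of the heavy chains among the 6 stromal classes taken whole. These falls were smaller in its cells with UMIs of Cxcl12, Lepr and Adipoq, described below. H2-K1 measured 3413 and 3729 CPM in Control against 606 and 703 CPM in Fracture, 5.46-fold lower (log2 change -2.45 ± 0.15, adjusted p = 0.00144 by edgeR). H2-D1, the other classical heavy chain, measured 3957 and 4611 against 818 and 888 CPM (log2 change -2.33 ± 0.16, adjusted p = 0.00169 by edgeR). In both genes the highest Fracture value was under the lowest Control value, by far more than the distance within either group. All 10 members were called lower, where 26.3% of the 14776 genes tested were lower and 25.8% higher, and their median log2 change was -2.35 against -0.03 over all genes. With any 1 of the 4 preparations left out, the estimates of all 10 members stayed below 0, though such a fit leaves 1 preparation in a group.

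The non-classical heavy chains fell as far in BMSC-like cells. H2-Q7 measured 332 and 418 CPM in Control and 51.9 and 60.7 CPM in Fracture (log2 change -2.74 ± 0.16, adjusted p = 0.00131 by edgeR), and H2-Q6 measured 94.7 and 139 against 14.5 and 16.6 CPM, the largest change among the members (-2.91 ± 0.22, adjusted p = 0.0019). H2-Q4 (114 and 149 against 25.8 and 24.7 CPM) and H2-T23 (157 and 229 against 37.6 and 35.6 CPM) changed by -2.38 ± 0.15 and -2.40 ± 0.20 on the log2 scale. Across these 4 genes the 2 Fracture preparations lay close together and below both Control preparations. Of the 90-base windows in the last 400 bases of the transcripts, 12.5% in H2-Q4, 7.72% in H2-Q6 and 16.1% in H2-T23 also occur in transcripts of other genes, and over whole transcripts H2-Q6 (13.2%) and H2-Q7 (18.1%) share windows with each other and with H2-D1, H2-K1 and H2-Q10, so reads of these genes could be split or lost between copies. On the opposite strand, Tap1 overlaps Psmb9, B2m overlaps Patl2, H2-Q4 overlaps Gm11131, H2-T23 overlaps A930015D03Rik, Psmb8 overlaps Gm20496 and Tapbp overlaps Gm19412. Tapbp also overlaps Zbtb22 on the same strand. Whether counting used strand is not given in the sources used here.

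The light chain and the processing genes fell less. B2m measured 2481 and 2579.5 CPM in Control against 907 and 966 CPM in Fracture (log2 change -1.43 ± 0.12, adjusted p = 0.0021 by edgeR). Psmb8 measured 229 and 277 against 109 and 115 CPM (-1.17 ± 0.11), Tap1 63.1 and 72.8 against 33.8 and 34.7 CPM (-0.99 ± 0.10) and Tapbp 212 and 232 against 130.5 and 123 CPM (-0.81 ± 0.08). All 4 genes were lower in each Fracture preparation than in each Control preparation, with adjusted p-values between 0.0021 and 0.00306. The 4 smallest changes among the members thus belonged to the light chain and the genes that cut, carry and load peptides.

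The markers that define the BMSC-like class were not at the same level in both groups. Its 7 markers summed to 26712 and 27715 CPM in Control against 1771 and 2102 CPM in Fracture, and all 7 were lower in Fracture. Cxcl12, the chemokine that retains blood stem cells in the marrow, had a UMI in 97.4% and 97.3% of the class in Control and in 69.1% and 71.3% in Fracture. Lepr was found in 84.5% and 89.1% against 33.4% and 34.6% of the cells, and Adipoq in 70.96% and 78.2% against 7.63% and 10.8%. The fall of the members in this class therefore went together with a fall of the markers that define it.

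To compare cells closer in kind, BMSC-like cells with a UMI each of Cxcl12, Lepr and Adipoq were taken, a choice made after the class was seen. They made up 68.1% and 76.4% of the class in Control (1777 and 1321 cells) and 6.38% and 8.18% in Fracture (66 and 91 cells). In these cells H2-K1 measured 4342 and 4524 CPM in Control and 3078 and 3465 CPM in Fracture (log2 change -0.44 ± 0.13, adjusted p = 0.129 by edgeR), and H2-D1 measured 5049 and 5586 against 4008 and 4039 CPM (-0.40 ± 0.13, adjusted p = 0.149). B2m measured 2886 and 2963 against 2711 and 2684 CPM (-0.12 ± 0.11). The Fracture values of all 3 genes again lay below the Control values, but by much less than in the whole class. EdgeR called 0 of the 10 members there, and 5 were lower at an unadjusted p under 0.05. Of the 12899 genes tested in these cells, 3.64% were called in either direction. The members' median log2 change was -0.43 against -0.05 over all genes, from -0.81 (H2-T23) to -0.04 (Psmb8).

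In the BMSC-like cells that did not hold all 3 of these transcripts, edgeR called 9 of the 10 members lower, with a median log2 change of -1.74, where 39.3% of genes were called in either direction. The exception was Tapbp, at -0.19 (adjusted p = 0.12). In BMSC-like cells with UMIs of at least 4 of the 7 markers, which were 82.0% and 87.4% of the class in Control and 15.8% and 18.5% in Fracture, 9 members were called lower with a median of -0.85, H2-K1 with a log2 change of -0.98, against 18.8% of genes called in either direction, and Psmb8 was not called. With cells chosen that way, the falls of H2-K1, H2-D1, H2-Q4, H2-Q6 and H2-Q7 were larger in osteoblast-like than in BMSC-like cells (H2-Q6 -2.47 against -1.09). The size of the fall in the class thus moved more than 1.5 times with the choice of cells, and a change in which cells make up the class cannot be told apart from a fall within the same cells.

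Other cell types' markers in the BMSC-like class were read beside this result. The cartilage list rose from 869.9 and 451 to 3862 and 3915 summed CPM, with all 7 genes higher. The fibroblast list rose from 59.7 and 24.3 to 363 and 314 CPM and the smooth muscle list from 264 and 203 to 1346 and 1069 CPM. The B cell list fell from 1286 and 1439 to 338 and 416 CPM, and without overlap between the groups 3 of its 6 genes were lower and 1 was higher. The basophil and mast cell list fell from 247 and 99.9 to 10.4 and 10.99 CPM, the megakaryocyte list from 386 and 122 to 22.8 and 33.2 CPM and the monocyte list from 365 and 484 to 291 and 285 CPM. The T and natural killer cell list measured 4.56 and 1.33 CPM in Control and 3.47 and 2.46 CPM in Fracture, near 0 in both. Ptprc, which encodes CD45, was found in 0.805% and 0.289% of the class in Control and in 0.386% and 0% in Fracture (0 of 1113 cells, which allows up to 0.2695%). Whether the sums of these lists came from cells of those types was not tested, nor was their part in the members' values.

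Per cell, the level over the class was lower in Fracture, but less so among cells with the 3 transcripts. The summed level of the 10 members per cell had medians of 11462 and 12399 CPM for Control against 1565 and 1629.9 CPM for Fracture. Of the Fracture cells, 77.3% and 76.7% lay under the 10th percentile of the Control cells (4381 CPM), while the 90th percentiles of the Fracture preparations, 8455 and 8833 CPM, reached well into the Control range. In the cells with Cxcl12, Lepr and Adipoq the medians were 13269 and 13998 CPM for Control against 12771 and 12270 CPM for Fracture, and in the cells without all 3 they were 6873 and 5973 against 1432 and 1458 CPM. With each cell thinned to 1000 UMIs, the share with H2-K1 was 90.3% and 89.97% for Control against 34.0% and 35.6% for Fracture (97.7% and 98.1% against 79.7% and 80.2% unthinned). B2m went from 85.9% and 86.0% to 53.04% and 54.3% thinned, although its unthinned shares were 95.9% and 97.3% and 97.8% and 97.5%. Median depths in this class were 5323 and 6794 UMIs in Control and 8420.00 and 8685 in Fracture, and 66 and 1 cells of the Control preparations were too shallow to thin. In chondrocyte-like cells, the class with the lowest level, the thinned H2-K1 shares were 13.7% and 11.5% and 13.5% and 13.4% at median depths from 12314 to 18228 UMIs. The 2-sided exact permutation test of 2 against 2 preparations cannot go below 0.333, which was its value for all 10 members in BMSC-like cells.

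**Figure D2:**
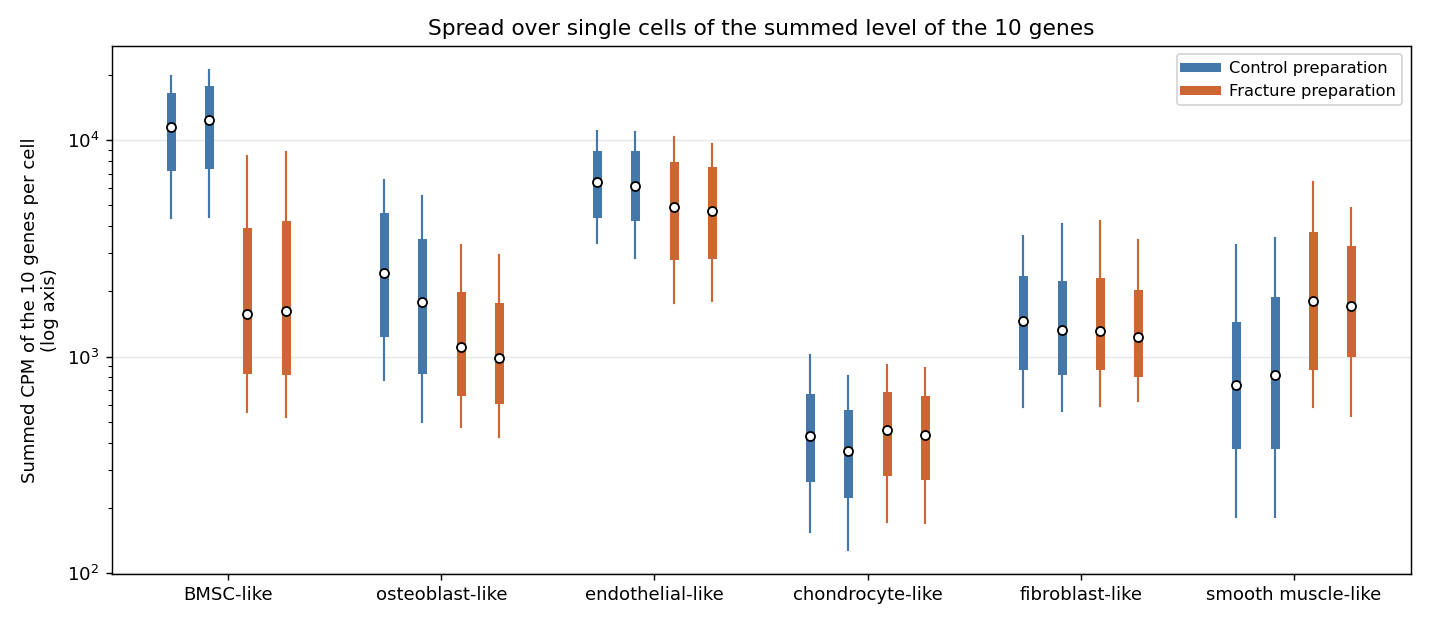
Summed level of the 10 members per cell (CPM, log axis) in each preparation of the 6 stromal classes, drawn as median with the 10th and 90th percentiles. The BMSC-like medians are 11462 and 12399 CPM in Control and 1565 and 1629.9 CPM in Fracture, and the endothelial-like medians keep closer together.

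The BMSC-like cells were split further into those resembling diaphyseal (dpMSC-like) and metaphyseal (mpMSC-like) stromal cells. The dpMSC-like share of the class was 64.4% and 70.4% in Control and 30.9% and 32.1% in Fracture, and the mpMSC-like share 31.9% and 26.8% against 43.3% and 44.5%. In dpMSC-like cells H2-K1 measured 4182 and 4398 CPM in Control and 683 and 961 CPM in Fracture, and in mpMSC-like cells 2593 and 2534 against 703 and 787 CPM. H2-K1 was lower in each Fracture preparation than in each Control preparation in both subclasses (-2.38 ± 0.22 and -1.78 ± 0.10 on the log2 scale). All 10 members were called lower in each, from -0.54 (Tapbp) to -2.89 (H2-Q7) in dpMSC-like and from -0.64 (Tapbp) to -2.58 (H2-Q6) in mpMSC-like cells, where 25.4% and 12.1% of all genes were called lower. The make-up of the dpMSC-like cells differed as well, since 1526 of 1680 and 1163 of 1218 of them held Cxcl12, Lepr and Adipoq in Control, against 46 of 320 and 69 of 357 in Fracture. Its part in these values was not tested. Without Fracture preparation 1, 1 member in dpMSC-like and 4 in mpMSC-like cells stayed called, and without Fracture preparation 2 the counts were 4 and 0 (edgeR, 10 at an unadjusted p under 0.05 in the latter), where 0 of 12582 genes were called in mpMSC-like cells. The other 3 of these fits called 1387 of 14315 and 2198 of 14276 genes in dpMSC-like and 180 of 12707 in mpMSC-like cells.

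Osteoblast-like cells, the bone-forming cells, also had lower values after fracture. H2-D1 measured 941 and 943 CPM in Control and 394 and 364 CPM in Fracture (log2 change -1.31 ± 0.07, adjusted p = 0.0042 by edgeR), and H2-K1 measured 654 and 547 against 295 and 269.97 CPM (-1.09 ± 0.11, adjusted p = 0.0115). Among the non-classical chains H2-Q6 measured 25.8 and 26.8 against 4.66 and 4.69 CPM (-2.49 ± 0.09) and H2-Q7 96.4 and 82.1 against 25.7 and 24.8 CPM (-1.82 ± 0.10). These 4 heavy chains did not overlap between the groups, a description whose share over all genes is not given here. Psmb8 measured 19.9 and 17.3 CPM in Control and 6.92 and 5.43 CPM in Fracture (-1.59 ± 0.16), and Tap1 8.07 and 8.19 against 4.04 and 4.09 CPM (-1.0 ± 0.11). B2m changed by -0.71 ± 0.11 and Tapbp by -0.44 ± 0.08 on the log2 scale. In all, 9 of the 10 members were called lower, where 6.07% of the 13747 genes tested were lower and 9.34% higher, with a median log2 change of -1.20. The exception was H2-T23, at 36.4 and 37.2 CPM in Control and 28.04 and 21.9 CPM in Fracture (adjusted p = 0.0591). The osteoblast list itself fell from 106182 and 123663 to 45624 and 58742 summed CPM, with 3 of its genes lower and 3 higher without overlap between the groups, and its part in these values was not tested. Osteoblast-like cells with UMIs of Cxcl12, Lepr and Adipoq were 34 of 1721 and 10 of 1004 in Control. In Fracture they were 0 of 1643 and 1 of 1762, and their part was not tested either. Cells with at least 4 of the 7 markers were 97.8% to 99.4% of the class, and among them 9 members were called lower, where 15.7% of genes were called in either direction. Without Fracture preparation 1 or 2, edgeR called 0 members (10 and 10 at an unadjusted p under 0.05), and 2 and 0 of all genes.

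Endothelial-like cells, which line the vessels, had smaller differences. H2-K1 measured 1702 and 1700.1 CPM in Control and 1334 and 1307 CPM in Fracture (log2 change -0.37 ± 0.09, adjusted p = 0.0392 by edgeR), and the groups did not overlap. H2-T23 measured 199 and 216 against 108 and 91.9 CPM, 2.08-fold lower (-1.06 ± 0.10, adjusted p = 0.00894), and Tapbp 257 and 242 against 162 and 159 CPM (-0.64 ± 0.07, adjusted p = 0.00927). These 3 members were called lower, where 16.2% of genes were lower and 17.5% higher, and H2-T23 was the member with the largest change in this class. H2-D1 (1883 and 2076 against 1781 and 1681 CPM, adjusted p = 0.233), B2m (1569 and 1596 against 1501 and 1523 CPM, adjusted p = 0.595) and Psmb8 (249.7 and 248 against 238 and 230.1 CPM, adjusted p = 0.296) were not called. H2-Q4 (97.1 and 106 against 82.4 and 68.3 CPM, adjusted p = 0.0527) and H2-Q6 (74.9 and 89.2 against 62.2 and 66.4 CPM, adjusted p = 0.0723) were lower in each Fracture preparation and missed the threshold, though H2-Q4 was called in 7 and H2-Q6 in 3 of 14 alternatives. At an unadjusted p under 0.05, 5 members were lower. For Tap1 and H2-Q7 the preparations overlapped. Without Control preparation 1 or 2 the count was 7 and 5, where 7315 of 15128 and 7292 of 15119 genes were called, and without Fracture preparation 1 or 2 edgeR called 0 members (3 and 2 at an unadjusted p under 0.05) and 0 of all genes. The call of H2-K1 was lost in 6 of 14 alternatives. The count was 2 with classes from clusters without integration, where 3871 of 13763 genes were called. Without the 6% highest doublet scores of each library the count was 2, where 4785 of 13751 genes were called. In each of these fits 1 member was higher and 2 were lower at an unadjusted p under 0.05 by edgeR. The cartilage list rose in this class from 2244 and 1075 to 14060.5 and 13984 summed CPM and its part in these values was not tested.

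Chondrocyte-like cells, the cartilage cells of the growth plate and callus, had low values in both groups. They came from 2 clusters in unequal shares, since the larger one held 1248 of 2065 and 422 of 674 of the class in Control and 5677 of 6794 and 5961 of 7115 in Fracture. The part of this in the values of the class was not tested. B2m measured 136 and 90.4 CPM in Control and 183 and 180.2 CPM in Fracture, where both Fracture values were higher but the change was not called (log2 change 0.68 ± 0.20, adjusted p = 0.061 by edgeR). H2-K1 measured 169 and 129.8 against 176 and 176 CPM (adjusted p = 0.235) and H2-D1 128 and 90.6 against 118 and 112 CPM (adjusted p = 0.763), with the Fracture values of H2-D1 inside the Control range. The only member called was Tapbp, lower at 78.9 and 72.4 against 43.7 and 44.5 CPM (-0.78 ± 0.07, adjusted p = 0.00389), where 18.1% of genes were called lower and 19.1% higher. Psmb8 measured 7.04 and 4.05 against 3.03 and 2.56 CPM and missed the threshold (adjusted p = 0.0505). The number of members called moved with the processing. It was 4 without TMM, 3 with DESeq2 and 5 without called doublets, where 6685 of 17288, 5789 of 17288 and 6596 of 17248 genes were called. The count rested on single preparations, since it was 4 without Control preparation 1 (3 higher, 1 lower, where 6828 of 18551 genes were called), 4 without Control preparation 2 (1 higher, 3 lower, where 8810 of 18697 genes were called) and 0 by edgeR without Fracture preparation 1 or 2 (1 and 1 at an unadjusted p under 0.05), where 441 and 590 of all genes were called.

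For H2-Q4, H2-Q6 and H2-Q7 the 2 clusters moved in opposite directions. In the larger one, whose leading genes include Col10a1 and Ihh of hypertrophic cartilage, H2-Q4 measured 3.99 and 4.07 CPM in Control and 1.77 and 1.5 CPM in Fracture. In the other it measured 8.67 and 4.91 against 20.1 and 13.1 CPM. H2-Q7 measured 9.87 and 8.92 against 7.5 and 8.17 CPM in the larger cluster and 20.5 and 21.8 against 30.9 and 28.5 CPM in the other, and H2-Q6 moved the same way at 6.65 CPM or less. For these 3 genes both Fracture values were lower in the first cluster and both were higher in the second, and this difference was not tested. B2m was higher in each Fracture preparation in the larger cluster (150 and 100 against 188 and 181 CPM) and overlapped in the other (134 and 85.2 against 102 and 102 CPM). Tapbp was lower in each Fracture preparation in both clusters (78.8 and 69.2 against 36.6 and 37.7 CPM, and 92.2 and 85.9 against 70.8 and 66.7 CPM).

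In fibroblast-like cells the light chain was higher. B2m measured 469 and 454 CPM in Control and 745 and 707 CPM in Fracture, 1.57-fold higher (log2 change 0.65 ± 0.11, adjusted p = 0.0272 by edgeR), the only member called, where 8.38% of genes were called higher and 7.94% lower. Tap1 (11.2 and 12.03 against 21.3 and 16.3 CPM, adjusted p = 0.0961) and H2-Q7 (26.2 and 18.4 against 13.8 and 11.7 CPM, adjusted p = 0.0611) did not overlap between the groups and were not called. The heavy chains H2-K1 and H2-D1 had log2 changes of 0.12 ± 0.14 and -0.16 ± 0.13. With the preparation number as a replicate block edgeR called 0 members (3 higher and 1 lower at an unadjusted p under 0.05) and 458 of 12513 genes. Only 14.3% and 18.8% of these cells held at least 4 of the 7 fibroblast markers in Control, against 51.8% and 50.7% in Fracture, and with those cells alone edgeR called 0 members (0 at an unadjusted p under 0.05) and 6.16% of genes. Without Fracture preparation 1 or 2 edgeR called 0 members (0 and 2 at an unadjusted p under 0.05) and 0 of all genes, and without Control preparation 2 it called 3, where 4675 of 13462 genes were called.

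In smooth muscle-like cells, the contractile cells of vessel walls, 2 members were called higher after fracture. B2m measured 454 and 452 CPM in Control and 928 and 803 CPM in Fracture (log2 change 0.93 ± 0.13, adjusted p = 0.00967 by edgeR), and Psmb8 measured 53.5 and 55.2 against 111 and 144 CPM, 2.34-fold higher (1.23 ± 0.17, adjusted p = 0.00879). In both genes each Fracture value was above each Control value. These were the only members called, where 14.1% of genes were called higher and 12.4% lower, and the median log2 change over the 10 members was 0.58. Tap1 (18.5 and 19.2 against 28.4 and 40.6 CPM, adjusted p = 0.0576) and H2-D1 (575 and 521 against 853 and 712 CPM, adjusted p = 0.0569) missed the threshold. H2-T23 was the only member whose estimate was below 0, at 42.9 and 43.2 against 33.9 and 32.6 CPM (adjusted p = 0.181). Thinned to 1000 UMIs, B2m was found in 24.5% and 26.8% of the cells for Control against 53.4% and 50.3% for Fracture, and Psmb8 in 3.49% and 4.21% against 10.3% and 12.4%. The summed level per cell had medians of 741 and 822 CPM in Control and 1798 and 1704 CPM in Fracture. With called doublets removed edgeR called 4 members, and with the 6% highest doublet scores removed 6, where 2778 of 10374 and 2827 of 9719 genes were called. Without Control preparation 1 or 2 edgeR called 3 and 4 members, where 3178 of 11028 and 3679 of 11116 genes were called. Without Fracture preparation 1 or 2 it called 1 each, where 564 of 11012 and 790 of 11117 genes were.

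The Fracture preparations held few smooth muscle-like cells, and other markers moved there too. The smooth muscle list fell from 39937 and 37935 to 19494 and 21558 summed CPM, the cartilage list rose from 626 and 237 to 9755 and 4994 CPM and the erythroid list from 71.8 and 158 to 5096 and 5566 CPM. The monocyte and macrophage list measured 100.03 and 94.1 CPM in Control and 150.3 and 109 CPM in Fracture, and Ptprc was found in 1.103% and 0.952% of the cells in Control and in 0 of the 168 and 164 cells in Fracture, which allows shares of up to 1.79% and 1.83% by counting error alone. The part of these cells' RNA in the rise was not tested.

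**Figure D3:**
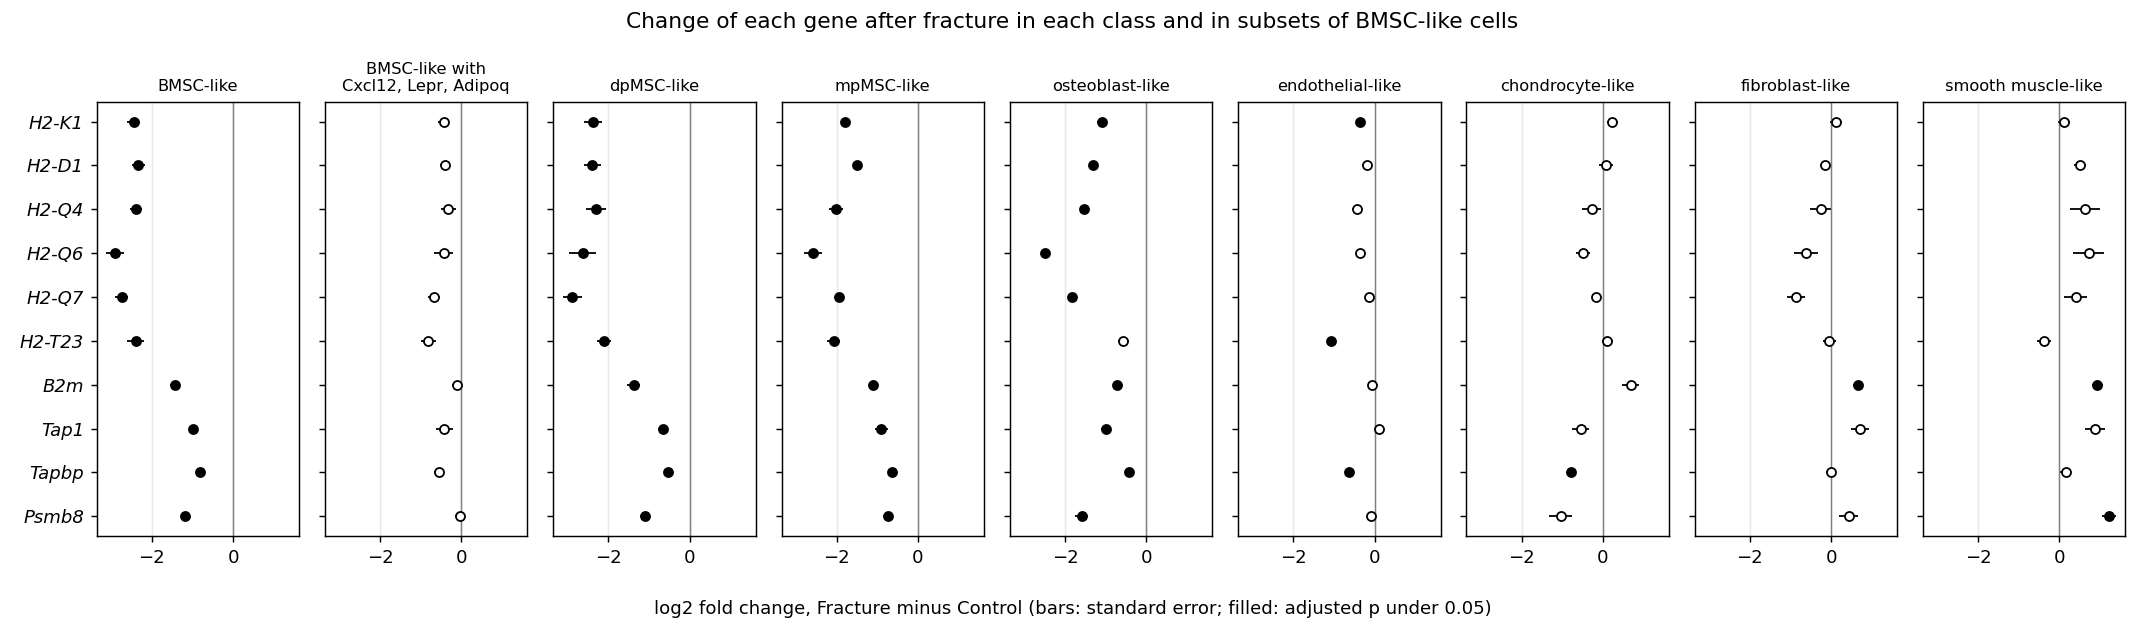
Log2 change (Fracture minus Control) of each member with its standard error from edgeR, in 9 panels. They show the 6 stromal classes, the BMSC-like cells with UMIs of Cxcl12, Lepr and Adipoq, and the dpMSC-like and mpMSC-like cells. All 10 members lie below 0 in BMSC-like cells, with a median of -2.35, while in fibroblast-like cells 4 lie above 0 and 6 below (median -0.02) and in smooth muscle-like cells 9 lie above 0 and 1 below (median 0.58).

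The change after fracture differed between the 6 stromal classes for every member. In 1 model over the 24 sums, with the preparation as a term, the joint test of the class-by-group terms gave adjusted p-values from 1.59e-08 (H2-K1) to 6.95e-06 (Tap1), so all 10 members were called, where 61.4% of genes were. Beyond that term the model treated the 6 sums of a preparation as separate samples, although they came from the same libraries, so these p-values can be too small. H2-K1 shows the spread, with log2 changes of -2.45 for BMSC-like, -1.09 for osteoblast-like and -0.37 for endothelial-like cells, and 0.11 for smooth muscle-like, 0.12 for fibroblast-like and 0.24 for chondrocyte-like cells. Psmb8 ran from -1.59 in osteoblast-like to 1.23 in smooth muscle-like cells. B2m ran from -1.43 in BMSC-like to 0.93 in smooth muscle-like cells, and it was called in both directions.

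Among the leftover blood cells, edgeR called 0 members in any of the 3 classes, and DESeq2 called 1 each in basophil- or mast-like and megakaryocyte-like cells, where it called 1144 of 12467 and 488 of 8272 genes. Basophil- or mast-like cells numbered 2284 and 918 in Control and 88 and 84 in Fracture, and H2-K1 measured 978 and 955 against 849 and 1009.9 CPM there, with overlap. Psmb8 measured 468 and 490.1 against 522 and 431 CPM and also overlapped. At an unadjusted p under 0.05, 1 member was lower in basophil- or mast-like cells (H2-T23, adjusted p = 0.134), 1 was higher in erythroid-like cells (B2m) and 0 of the 8 tested differed in megakaryocyte-like cells. EdgeR called 0% of all genes in each of these classes.

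Psmb8 was then set against the constitutive subunit it replaces, as a ratio of UMIs within the same cells. Psmb8, Psmb9 and Psmb10 are the catalytic subunits of the immunoproteasome, and Psmb5, Psmb6 and Psmb7 are their counterparts in the standard 20S proteasome. In BMSC-like cells Psmb8 to Psmb5 was 1.35 and 1.75 in Control and 0.475 and 0.526 in Fracture, Psmb9 to Psmb6 0.442 and 0.627 against 0.0997 and 0.0928, and Psmb10 to Psmb7 2.16 and 2.51 against 0.833 and 0.869. The 3 ratios were 3.09-fold, 5.55-fold and 2.74-fold lower in Fracture. A ratio also moves with its denominator. Of the 19 constitutive 20S proteasome genes, 17 were called higher and 0 lower in this class, where 25.8% of all genes were higher. Their median log2 change was 0.53, and the part of this in the ratios was not tested. In the BMSC-like cells with Cxcl12, Lepr and Adipoq the log2 change of Psmb8 was -0.04, and edgeR called 0 of the 5 genes of the immunoproteasome and its activator (0 at an unadjusted p under 0.05, median log2 change -0.05). The ratios were not computed in these cells. In osteoblast-like cells Psmb8 to Psmb5 was 0.159 and 0.135 against 0.0572 and 0.0469, and in endothelial-like cells 1.898 and 1.88 against 1.43 and 1.43. All 3 ratios were lower in both of these classes, without overlap. In endothelial-like cells Psmb8 itself was not called, and 12 of the 19 constitutive genes were called higher and 0 lower, where 17.5% of all genes were higher. In smooth muscle-like cells Psmb8 to Psmb5 was 0.351 and 0.332 in Control and 0.569 and 0.706 in Fracture, and the 3 ratios were 1.87-fold, 2.39-fold and 2.31-fold higher. In chondrocyte-like cells Psmb8 to Psmb5 and Psmb9 to Psmb6 were lower in Fracture and Psmb10 to Psmb7 overlapped, and in fibroblast-like cells all 3 overlapped. The 2-sided exact permutation p was 0.333, the smallest these preparations allow, for each ratio that did not overlap.

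**Figure D4:**
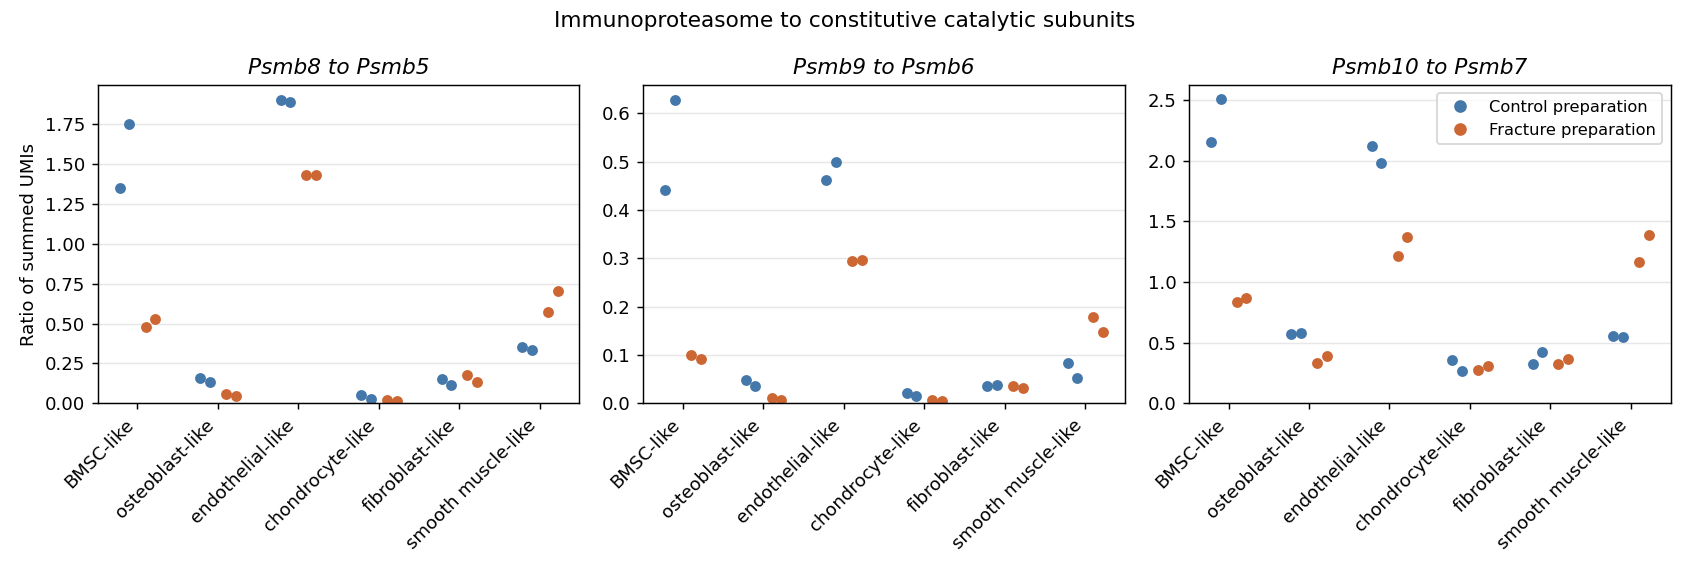
Ratio of UMIs of each immunoproteasome subunit to its constitutive counterpart (linear axis) in the 6 stromal classes, with 1 point per preparation. Psmb8 to Psmb5 falls from 1.35 and 1.75 to 0.475 and 0.526 in BMSC-like cells and rises from 0.351 and 0.332 to 0.569 and 0.706 in smooth muscle-like cells.

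Lists of related genes were read beside the members, by counts of calls and medians. In BMSC-like cells all 11 heavy chains tested were lower (median log2 change -2.40), as were 4 of 5 genes of the immunoproteasome and its activator, 7 of 14 of peptide loading and trimming (with 2 higher) and 20 of 29 interferon-stimulated genes (median -1.07), where 26.3% of all genes were lower. Of the 19 genes of the constitutive 20S proteasome 17 were higher (median 0.53), where 25.8% of all genes were higher. Outside the members, H2-Q10, a secreted class I chain, measured 174 and 186 CPM in Control and 7.16 and 9.67 CPM in Fracture (-4.42 ± 0.18), and Clec2d, a ligand that natural killer cells read, 299.6 and 402 against 24.0 and 30.5 CPM (-3.68 ± 0.21). Cd1d1, which presents lipids, measured 163 and 181 against 37.99 and 36.7 CPM (-2.20 ± 0.09), and Tap2, the partner of Tap1, 89.2 and 103 against 35.7 and 34.04 CPM (-1.46 ± 0.10). For these 4 genes no Fracture value reached a Control value.

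In the BMSC-like cells with Cxcl12, Lepr and Adipoq most of these calls were absent. Of the heavy chains 1 of 11 was called lower, H2-Q10 at 263 and 246 CPM in Control and 71.2 and 89.9 CPM in Fracture (-1.65 ± 0.15, adjusted p = 0.0314 by edgeR), where 1.48% of genes were called lower. Clec2d measured 453 and 528 against 114 and 149 CPM (-1.89 ± 0.17, adjusted p = 0.0314). Among the interferon-stimulated genes 1 of 29 was called, and it was higher. At an unadjusted p under 0.05, 11 were lower and 3 higher, and the share of all genes at that threshold was not counted. The list's median log2 change was -0.39 against -0.05 over all genes. Of the 22 regulators, 2 were called lower.

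Of the 22 regulators tested in BMSC-like cells 14 were lower and 2 higher, where 26.3% of all genes were lower and 25.8% higher. Nlrc5, the class I transactivator, measured 33.4 and 41.1 CPM in Control and 8.104 and 7.87 CPM in Fracture (-2.22 ± 0.14, adjusted p = 0.00147 by edgeR), and in the cells with Cxcl12, Lepr and Adipoq 33.5 and 42.03 against 23.7 and 26.2 CPM (-0.59 ± 0.22, adjusted p = 0.191). Irf1, which acts downstream of interferon-gamma, measured 61.4 and 91.5 against 52.7 and 57.4 CPM in BMSC-like cells (-0.47 ± 0.21, adjusted p = 0.117). Nlrc5 was also lower in osteoblast-like cells, at 5.01 and 6.8 against 1.21 and 1.16 CPM (-2.31 ± 0.23), while Irf1 was higher, at 11.6 and 13.03 against 51.6 and 53.7 CPM (2.09 ± 0.09). Socs3, an inhibitor of cytokine signalling, rose there from 46.5 and 53.2 to 438 and 395 CPM (3.06 ± 0.11). Irf1 was also higher in chondrocyte-like cells (21.4 and 16.8 against 52.5 and 51.2 CPM, 1.44 ± 0.13) and in smooth muscle-like cells (36.4 and 29.6 against 92.8 and 59.9 CPM, 1.19 ± 0.26). Nlrc5 was too low to be tested in fibroblast-like and smooth muscle-like cells, and Ciita, its class II counterpart, in any of the 6 classes.

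The interferon-stimulated genes were called in different directions by class. In osteoblast-like cells 6 of 29 were lower and 1 higher, and in endothelial-like cells 11 were lower and 1 higher, where 6.07% and 16.2% of all genes were lower. Smooth muscle-like cells had 14 of 29 higher and 0 lower (median 1.1) and fibroblast-like cells 8 of 28 higher and 0 lower, where 14.1% and 8.38% of all genes were higher. Ifit3, an interferon-induced antiviral protein, measured 6.44 and 10.4 CPM in Control and 52.2 and 55.9 CPM in Fracture in smooth muscle-like cells (2.76 ± 0.29), and Isg15, a ubiquitin-like protein induced by interferon, 11.5 and 11.3 against 47.9 and 45.6 CPM in fibroblast-like cells (2.03 ± 0.13). Cxcl9, a chemokine that draws T cells, fell from 105 and 406 to 15.9 and 17.2 CPM in BMSC-like cells and rose from 4.48 and 2.402 to 27.8 and 31.3 CPM in smooth muscle-like cells. In these classes no preparation of 1 group reached into the other for these genes. Of the 5 genes of the immunoproteasome and its activator, all 5 were higher in smooth muscle-like cells (median 1.14), 3 were lower in osteoblast-like cells and 1 was lower in endothelial-like cells. In fibroblast-like cells edgeR called none of the 5, with adjusted p-values from 0.176 (Psme2) to 0.95 (Psme1).

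Some related genes were called in classes where few members were. In chondrocyte-like cells 0 of 10 heavy chains were called by edgeR, while H2-Ab1, a class II chain, measured 7.66 and 10.5 CPM in Control and 111 and 110.2 CPM in Fracture (3.61 ± 0.18) and H2-Aa fell by 1.85 on the log2 scale. Class II genes were called higher in all 6 stromal classes. They were 3 of 7 tested in chondrocyte-like (1 lower), 3 of 6 in BMSC-like (2 lower) and 3 of 7 in endothelial-like cells. In fibroblast-like cells they were 3 of 5, and in osteoblast-like and smooth muscle-like cells 2 of 3. Over all genes, 8.38% (fibroblast-like) to 25.8% (BMSC-like) were called higher. The endothelial-like cells had 3 of 12 heavy chains and 6 of 14 loading genes lower, where 16.2% of all genes were lower, among them Tap2 at 146 and 149 against 83.7 and 75.6 CPM (-0.89 ± 0.08). Psmb9 was not called there (104 and 109.98 against 99.96 and 91.8 CPM, adjusted p = 0.191), whereas Psmb10 was lower (174 and 189 against 140.3 and 139.8 CPM, -0.37 ± 0.07). Clec2d was lower in endothelial-like cells too, at 465 and 479.8 against 145 and 155 CPM (-1.66 ± 0.07), although H2-D1 and B2m did not pass the test there.

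**Figure D5:**
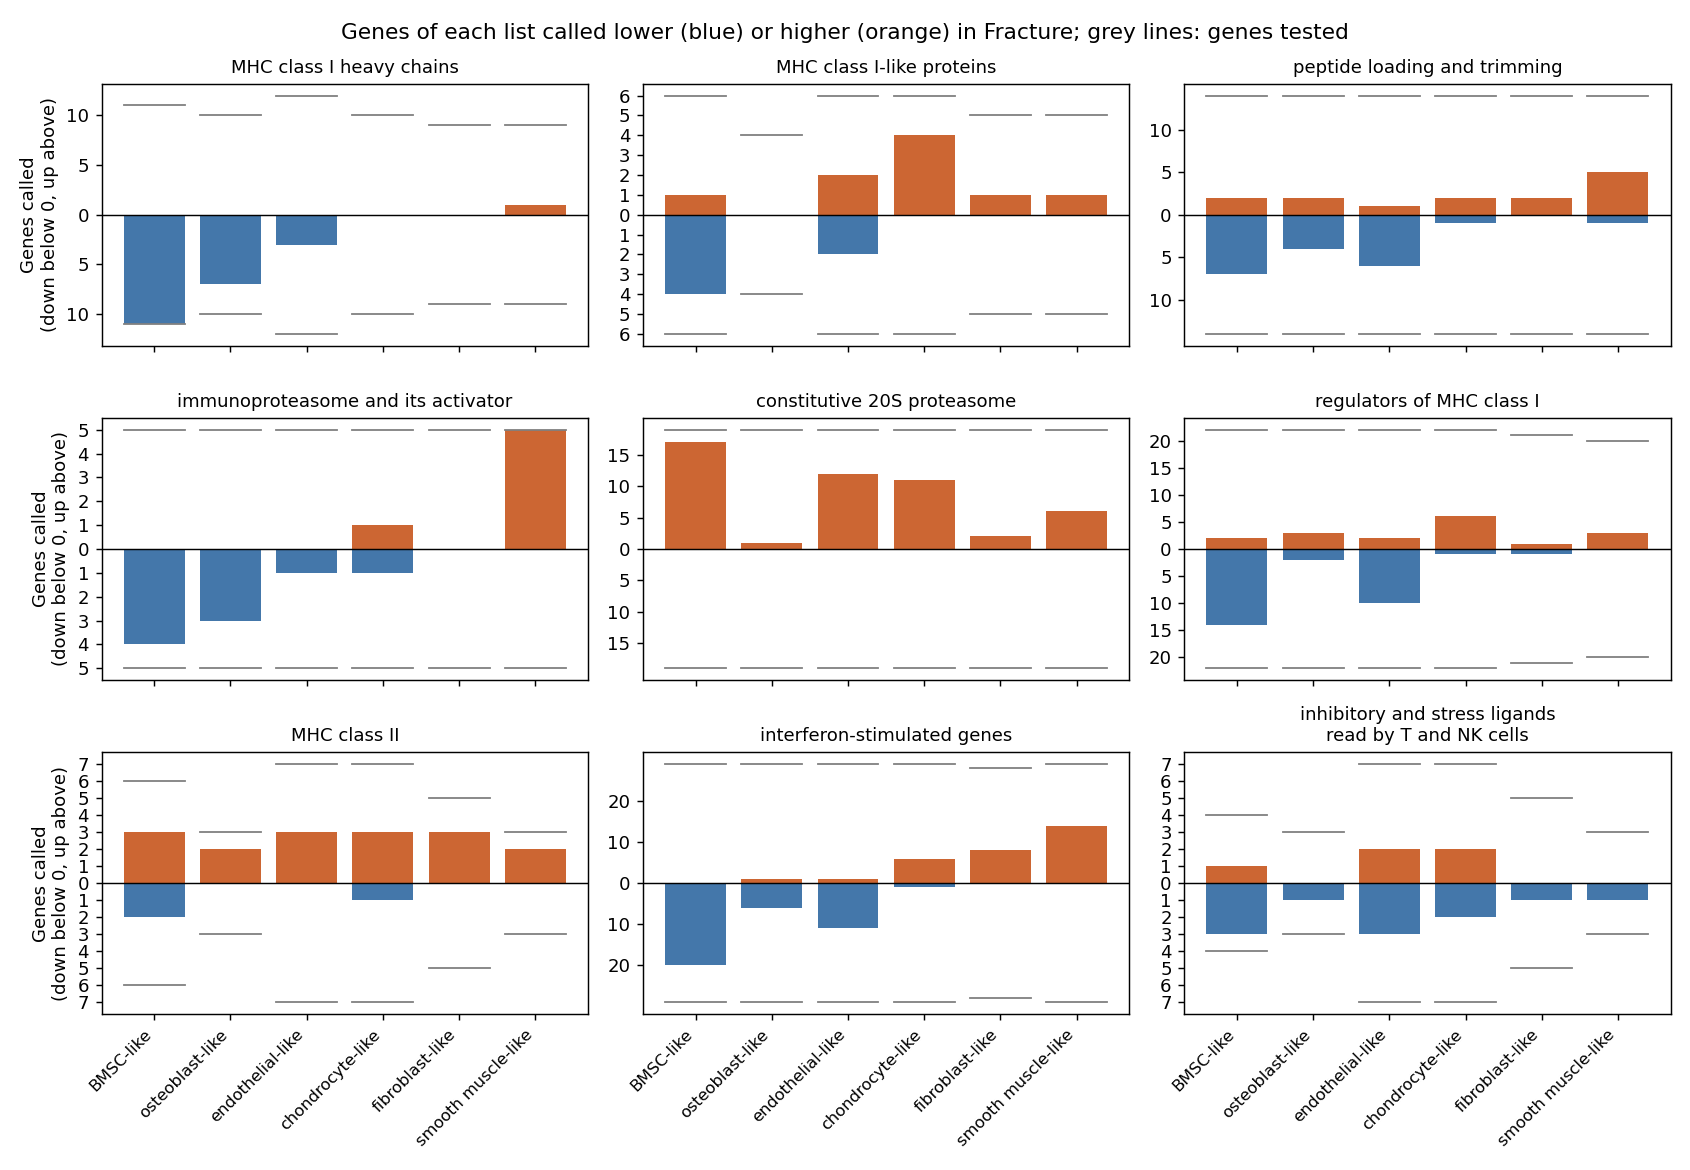
Number of genes of each pathway list called higher or lower in Fracture (edgeR, adjusted p under 0.05) in the 6 stromal classes. In BMSC-like cells 11 of 11 heavy chains are lower and 17 of 19 constitutive proteasome genes higher, and in smooth muscle-like cells 14 of 29 interferon-stimulated genes are higher.

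Finally, the genes whose levels ran most like the mean of the members were found over the 24 sums of 6 classes by 4 preparations, among 6468 genes with a mean of at least 20 CPM. The closest were H2-M3, a further class I heavy chain (Pearson r = 0.957), Ifnar2, a subunit of the type I interferon receptor (0.954), Bst2, an interferon-induced membrane protein (0.946), and Psmb9 (0.914). Vegfc, Irgm1, Ncstn, Sbf2, Ccng2 and Sft2d1 followed with r between 0.887 and 0.900. Among the members, r with that mean ran from 0.772 for Tapbp to 0.963 for H2-Q6. The sums of 1 preparation share libraries and depth, so these correlations are descriptions without a test.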

How the data were processed

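The deposited values are unnormalised UMI counts for every gene in every barcode, as the authors made them. Per the labels' processing notes, reads were handled with bcl2fastq 2.19.1.403, UMI-tools 1.0.0, STAR 2.7.3a and featureCounts 1.6.4 (Subread) on mm10, whereas the published methods name STARsolo for the study as a whole. How barcodes were selected is not settled, since Control tables reach down to 1 UMI per barcode and Fracture tables to 1929. Cells with 500 to 6000 genes and at most 25% mitochondrial UMIs were kept, and genes in at least 3 cells.

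Libraries were integrated by canonical correlation in Seurat 5.3.0 (R 4.3.3) and clustered on 12 components at a resolution of 0.1, with 223 members, pathway and cell cycle genes barred. Clusters were named from marker lists. Doublets scored with scrublet in scanpy 1.11.5 (722 cells, 1.59%) were kept, and the caller marked under 0.5% in 3 libraries. UMI counts were summed per class and preparation and tested with the quasi-likelihood test of edgeR 4.0.16 (TMM, its low-count filter, Benjamini-Hochberg over all genes), and with DESeq2 1.42.0 as an alternative. How well these fits hold their error rate with 2 preparations per group is not reported here. Exact permutation tests were 2-sided (scipy 1.17.1, Python 3.11.15). Values of 2 against 2 preparations that do not overlap are given as a description throughout. Such a separation cannot go below 0.333 in that test, and its share over all genes is not given here. Floors given for a share of 0 allow 3 counts and account for counting error alone.

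The 10 members and the gene lists were chosen with earlier results of these data known. Outside the members, at most 4 called genes of largest change per list and class were named, besides Nlrc5, Irf1, Ciita, Tap2 and the proteasome subunits Psmb5, Psmb6, Psmb7, Psmb9 and Psmb10. A further regulator is not reported here. Genes most like the members were the 10 of highest Pearson correlation. Promoters came from RefSeq, and gene positions from GENCODE M21.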

Additional observations from a re-analysis of the deposited data

Results flagged for a closer look

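B2m in BMSC-like cells of Control had 1 library apart from the other 3. On CPM scaled to library size the 4 libraries measured 2664, 2659.5, 2663 and 2794 CPM, and the gap of the highest to its nearest neighbour was 0.964 of their range, past Dixon's 95% critical value for 4 samples. It was 1 of 20 such comparisons, and chance alone gives about 1 in 20. The distance is small beside the B2m values of Fracture in this class.

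For each of the 10 members the change after fracture differed between the 6 stromal classes by the joint class-by-group test of edgeR. That test called 61.4% of the 17039 genes tested. The 6 sums of a preparation came from the same libraries, so its p-values can be too small. Among the heavy chains the adjusted p-values were 1.59e-08 for H2-K1, 3.27e-08 for H2-D1, 1.74e-07 for H2-Q4, 2.43e-08 for H2-Q6, 2.2e-08 for H2-Q7 and 6.65e-08 for H2-T23. For the light chain B2m it was 4.01e-08, and for the processing genes 6.95e-06 for Tap1, 5.98e-06 for Tapbp and 1.01e-06 for Psmb8. The BMSC-like class, which taken whole had the largest changes of the heavy chains, had fewer cells with its own markers in Fracture, and the part of this in the test was not tested.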

How the results depend on the processing

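With 1 preparation left out in turn, the number of members called ran from 0 to 10 in all cells, in stromal cells, in osteoblast-like and in mpMSC-like cells, from 1 to 10 in dpMSC-like, from 0 to 4 in chondrocyte-like, from 0 to 3 in fibroblast-like, from 0 to 7 in endothelial-like, from 1 to 4 in smooth muscle-like and from 0 to 5 in leftover blood classes, and it was 10 throughout in BMSC-like cells. The low ends came from leaving out a Fracture preparation. In each of these sets of cells, those fits also called fewer of all genes than the fits without a Control preparation. Each such fit leaves 1 preparation in a group. The ranges therefore cannot show whether the members moved more than other genes did. In chondrocyte-like cells 4 members were called without TMM, 3 with DESeq2, 3 with no low-count filter, 5 without called doublets, 5 without the 6% highest doublet scores, 2 with cells of at least 3000 UMIs, 2 without integration and 2 with marker-positive cells, where 5789 to 6685 of 17163 to 25268 genes were called. Their directions differed. At an unadjusted p under 0.05, 0 members were higher and 5 lower without TMM. The counts were 3 and 3 without called doublets and 4 and 2 without the 6% highest doublet scores, and the other choices gave both directions. In fibroblast-like cells the counts were 2 without TMM, 3 with no filter, 3 without integration and 0 by edgeR with marker-positive cells (0 at an unadjusted p under 0.05), where 1975 of 12513, 3616 of 21156, 2873 of 13345 and 650 of 10551 genes were called. In endothelial-like cells 5 were called without TMM, where 5136 of 14300 genes were. In smooth muscle-like cells 4 were called without called doublets and 6 without the 6% highest doublet scores, where 2778 of 10374 and 2827 of 9719 genes were. In BMSC-like cells with Cxcl12, Lepr and Adipoq edgeR called 0 (5 at an unadjusted p under 0.05). In leftover blood classes DESeq2 called 2. With no filter 1 was called, in megakaryocyte-like cells, where 677 of 19505 genes were called. The doublet-score, marker-positive and Cxcl12, Lepr and Adipoq choices were made after seeing the data. Without Control replicate 1, H2-K1 and Psmb8 reversed in erythroid-like cells, to log2 changes of 0.47 and 1.83, against -0.73 and -1.4 without Control replicate 2. The causes were not tested.

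Preparation numbers did not pair the samples: deviations of same-numbered preparations correlated by 0.00531 to 0.0962. With the number as a replicate block, 9 members were called in all cells, 8 in osteoblast-like, 2 in endothelial-like and 0 in fibroblast-like cells by edgeR. In these fits 3793 of 20452, 862 of 13747, 2976 of 14300 and 458 of 12513 genes were called, against 5829, 2118, 4817 and 2042 without the block. The other counts of members were unchanged.

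Without TMM the median of all genes shifted to -0.22 in BMSC-like, -0.16 in chondrocyte-like, -0.11 in endothelial-like, -0.27 in dpMSC-like, -0.14 in mpMSC-like, -0.22 in stromal and -0.36 in all cells, and the share of calls that were higher in Fracture went from 49.5% to 35.2% in BMSC-like, 51.3% to 32.7% in chondrocyte-like, 51.8% to 37.3% in endothelial-like, 51.0% to 35.0% in dpMSC-like, 52.8% to 35.3% in mpMSC-like, 46.9% to 26.8% in stromal and 47.8% to 25.1% in all cells. In megakaryocyte-like cells the low-count filter left 8 of the 10 members to test, so the other two were not tested at this depth.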
